A study of Mus musculus with 6 samples.

Results

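The nuclear oxidative phosphorylation subunits are the proteins of the mitochondrial respiratory chain and of ATP synthase whose genes lie in the cell nucleus. They were chosen by gene symbol: names starting with Ndufa, Ndufb, Ndufc, Ndufs, Ndufv, Uqcr, Atp5 or Cox4 to Cox8, and Sdha to Sdhd, without assembly factors and without pseudogenes. The table held 85 such genes among 23725 rows: 36 of complex I, 4 of complex II, 8 of complex III, 20 of complex IV and 17 of ATP synthase, also called complex V. They lie on 19 chromosomes. Ndufa4 and Ndufa4l2 were counted in complex IV, where these proteins are now placed, although their names are those of complex I genes.

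In oxidative phosphorylation, complexes I and II pass electrons from NADH and succinate to ubiquinone, complex III passes them on to cytochrome c, and complex IV hands them to oxygen. Complexes I, III and IV pump protons out of the mitochondrial matrix, and ATP synthase makes ATP as the protons flow back. Colonocytes are known for burning butyrate from the gut microbiota by this route. Each complex other than complex II also holds subunits encoded in mitochondrial DNA; those genes were not analysed here.

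RNA was sequenced from epithelial cells of the colon of 6 mice on the C57BL/6J background. The cells were enriched with Percoll and not cultured. Wild-type mice (n = 3) were compared with mice labelled B6-Cg-Nr3c1-Vil-Cre/ERT2, or Nr3c1IEC-/- (n = 3), in which the gene of the glucocorticoid receptor is deleted by a tamoxifen-activated Cre under the villin promoter, which is active in intestinal epithelium. Both groups received tamoxifen by intraperitoneal injection on 5 consecutive days, and cells were collected 7 days after the first. The labels used here state neither age, sex, the exon removed nor whether wild-type mice carried Cre, so a Cre effect and receptor loss cannot be told apart. Libraries are called wild type 1 to 3 and knockout 1 to 3, and these numbers are only names.

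The libraries held 10089313 to 12030844 reads. Values are reads divided by 1 size factor per library, called normalized reads, and a log2 change is knockout minus wild type on the log2(value + 1) scale. Nr3c1 itself, which checks the labels, stood at 1119.8, 967 and 197 normalized reads in wild type 1, 2 and 3 and at 145, 123 and 175 in the knockout libraries. The library labelled wild type 3 therefore lay near the knockout level of the targeted gene. The log2 change of Nr3c1 was -2.03 (SE 0.60, adjusted p = 0.0372, limma), the exact two-sided permutation p was 0.1, the smallest that 3 against 3 allows, and the limma call was lost when any library but wild type 3 was left out. Epcam, an epithelial surface protein, ranged from 18255 to 21874 over all 6 libraries. Markers of myeloid cells rose in 11 of 16 tested, with a summed level of 929 to 2250 in wild type and 3963 to 9569 in knockout. S100a8 and S100a9 were the largest terms of that sum in knockout 1 and 2. Cd68, Lyz2, Adgre1, Cd74 and C1qa did not pass.

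Across the tested subunits the levels lay mostly somewhat lower in the knockout cells, and 12 of the 79 that could be tested fell past the threshold. These were Cox7a1, Cox4i1, Cox6c and Cox7a2l of complex IV, Ndufa1, Ndufb4, Ndufb11, Ndufs7 and Ndufb10 of complex I, Sdhb and Sdha of complex II, and Atp5h of ATP synthase. Fitted log2 changes of the 12 ran from -1.90 to -0.36. The share lowered, 15.2%, was near the 15.4% of all 12837 tested genes that fell. No subunit rose, against 15.0% of all tested genes, with edgeR and DESeq2 also at 0. At an unadjusted limma p under 0.05, 0 subunits were higher, against 22.1% of all tested genes, and 26 were lower, against 22.4%. The fitted change was negative in 69 of the 79 and positive in 10, with a median of -0.19, or 12.1% lower, against a median of 0.01 over all tested genes. In bulk samples, less RNA per cell and fewer cells of a type rich in these transcripts cannot be told apart.

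The remaining 67 tested subunits did not pass. In 37 of the 79, every knockout library lay below every wild-type library, a pattern seen in 25.5% of all tested genes. In 0 subunits did every knockout library lie above, against 25.2% of all tested genes. Among other genes of similar abundance, with a mean of 500 to 30000 normalized reads, 611 of 4169 fell, which is 14.7%, and 894 rose, which is 21.4%. Their median log2 change was 0.08, against -0.18 for the 77 subunits in that range. The number of lowered subunits was 2 without wild type 1, 2 without wild type 2, 4 without wild type 3, 6 without knockout 1, 27 without knockout 2 and 3 without knockout 3, and none rose in those fits. Of all tested genes, 7.42%, 7.50%, 12.5%, 12.9%, 14.2% and 13.3% fell in the same fits, and 7.56%, 7.77%, 12.6%, 12.3%, 13.9% and 12.5% rose. Only Cox7a1 and Ndufa1 kept the call in all 6 of those fits, with adjusted p up to 0.0113 and 0.0199.

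**Figure D1:**
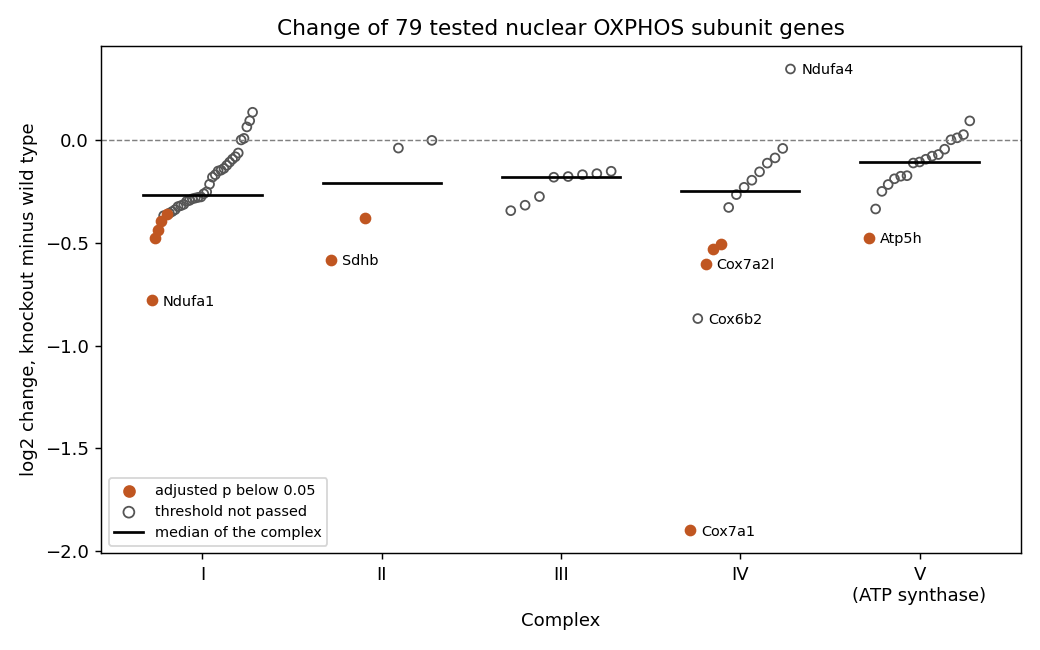
Fitted log2 change, knockout minus wild type, of each of the 79 tested subunit genes (points, vertical axis) in the 5 complexes (horizontal axis). Filled points passed an adjusted p of 0.05, open points did not, and bars are medians per complex; Cox7a1 at -1.90 lies far below the others and Ndufa4 at 0.35 is the highest.

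Complex I, the NADH dehydrogenase, is the largest of the chain, with a peripheral arm that takes up electrons and a membrane arm that pumps protons. All 36 of its genes were tested. Of these, 5 fell, which is 13.9% against 15.4% of all tested genes, and 31 did not pass. In 31 the fitted change was negative, and the median was -0.27. Summed over the complex, the level was 53224 ± 1376 normalized reads in wild type and 45604 ± 4988 in knockout (SD, n = 3 each), 14.3% lower. In 21 of the 36, all knockout libraries lay below all wild-type libraries, a pattern seen in 25.5% of all tested genes.

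Ndufa1, a small membrane-anchored subunit needed for assembly of the membrane arm, changed most. Its gene (Entrez 54405) lies at chrX:37187588-37191163 on the minus strand of GRCm38. It gave 1217, 1214 and 1214 normalized reads in wild type and 634, 792 and 706 in knockout. The wild-type values were nearly identical and every knockout value lay well below them. Means were 1215 ± 2.13 and 710.4 ± 78.8, 41.5% lower, with a log2 change of -0.78 (SE 0.11, adjusted p = 0.00310, limma).

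The other accessory subunits that fell belong to the distal membrane arm, among the Ndufb proteins. Ndufb4 (Entrez 68194, chr16:37647170-37654453) went from 1008, 975 and 1073 to 674, 844 and 686 normalized reads, a log2 change of -0.48 (SE 0.12, adjusted p = 0.0221, limma). Ndufb10 (Entrez 68342, chr17:24722060-24724478) went from 1785, 1727 and 1776 to 1180.4, 1597 and 1169, a log2 change of -0.44 (SE 0.14, adjusted p = 0.0469, limma). In both genes the groups did not overlap and knockout 2 was the knockout library nearest to wild type. Ndufb11 (Entrez 104130, chrX:20615326-20617619) went from 1385, 1360.2 and 1307 to 1048, 1131 and 984, a log2 change of -0.36 (SE 0.10, adjusted p = 0.0304, limma). Exons of Rbm10 on the opposite strand cover 12.9% of the exon length of Ndufb11, and reads there cannot be assigned in non-stranded libraries. Ndufb4 and Ndufb11 each also have 1 near-identical pseudogene whose reads could have been shared.

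Ndufs7, a core subunit that holds the iron-sulfur cluster next to ubiquinone, was the lowered member of the electron-carrying part. Its gene (Entrez 75406) lies at chr10:80249121-80256794. Wild type held 1238, 1237 and 1239 normalized reads, and knockout 875, 1104 and 862. Knockout 1 and 3 were about equally low and knockout 2 lay between them and wild type, with a log2 change of -0.40 (SE 0.12, adjusted p = 0.0426, limma). Among the 7 core subunits encoded in the nucleus, 1 fell and the median log2 change was -0.26. Among the 29 accessory subunits 4 fell and the median was -0.28.

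By name group, 1 of 13 Ndufa genes, 3 of 10 Ndufb genes, 0 of 2 Ndufc genes, 1 of 8 Ndufs genes and 0 of 3 Ndufv genes fell. Over all tested genes 15.4% fell. The nearest to the threshold on its other side was Ndufs6, a zinc-binding subunit of the peripheral arm, at 1031 ± 10.7 against 847 ± 54.9 (log2 change -0.29, SE 0.10, adjusted p = 0.0587, limma). Ndufv1, which binds NADH, differed without overlap, at 2863, 2876 and 2869 against 2084, 2688 and 2151, but did not pass (adjusted p = 0.0808, limma). The 5 positive fitted changes were those of Ndufb6 (0.14), Ndufs3 (0.09), Ndufs4 (0.06), Ndufb7 (0.01) and Ndufs8 (0.00), and none of them passed. Within the complex, fitted changes thus ran from -0.78 to 0.14. Exons of Smim27 on the opposite strand cover 39.0% of the exon length of Ndufb6, and Ndufs3 has 1 near-identical pseudogene. The number of lowered complex I genes was 1 without wild type 1, 2 or 3 or without knockout 3, 3 without knockout 1 and 15 without knockout 2. In those fits 7.42% to 14.2% of all tested genes fell.

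Complex II, succinate dehydrogenase, is also an enzyme of the tricarboxylic acid cycle and is the complex with no mitochondrially encoded subunit. Its 2 catalytic genes, Sdha and Sdhb, fell, while the membrane anchors Sdhc and Sdhd did not pass. Sdhb, the iron-sulfur subunit (Entrez 67680, chr4:140961203-140979193), had 3411, 3812 and 3732 normalized reads in wild type and 1916, 3189 and 2368 in knockout. The knockout libraries were spread widely, with knockout 2 only 12.7% under the wild-type mean and knockout 1 47.5% under it. The log2 change was -0.58 (SE 0.18, adjusted p = 0.0457, limma).

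Sdha, the flavoprotein that oxidizes succinate (Entrez 66945, chr13:74322254-74350280), had 6613, 6662 and 6880.4 normalized reads in wild type and 4542, 5611 and 5382 in knockout. The groups did not overlap, and the log2 change was -0.38 (SE 0.12, adjusted p = 0.0490, limma). Sdhc stood at 2458 ± 162 and 2406 ± 357 (log2 change -0.04, 95% interval -0.34 to 0.27), and Sdhd at 3354 ± 119 and 3359.7 ± 321 (log2 change -0.00, 95% interval -0.26 to 0.26). The difference between the catalytic and the anchor pair was not tested. Both calls are near the threshold: the number of lowered complex II genes was 0 with no filter or with edgeR, 1 with robust empirical Bayes, and 0 when any library but knockout 2 was left out.

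Complex III, the cytochrome bc complex, takes electrons from ubiquinol. None of its 8 Uqcr genes passed, with edgeR and DESeq2 also at 0, yet all 8 fitted changes were negative, between -0.34 and -0.15 with a median of -0.18. Uqcrh, the hinge protein that contacts cytochrome c, came nearest, with 3513, 3508 and 3383 normalized reads in wild type and 2451, 3152 and 2643 in knockout (log2 change -0.34, SE 0.12, adjusted p = 0.0653, limma). The groups did not overlap in Uqcrh. Uqcrfs1, the Rieske iron-sulfur protein, stood at 4102 ± 191 and 3404 ± 408 (adjusted p = 0.118, limma), again without overlap. Uqcrc2, a core protein and the highest of the complex, stood at 6212 ± 321 and 5607 ± 569 (log2 change -0.15, 95% interval -0.43 to 0.13, adjusted p = 0.365, limma). Exons of Pdzd9 on the opposite strand cover 26.6% of the exon length of Uqcrc2. Without knockout 2, 2 of the 8 fell.

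Complex IV, cytochrome c oxidase, surrounds its mitochondrially encoded core with nuclear subunits, several of which exist as a widespread form and a form of muscle, lung or testis. Of its 20 genes 14 were tested. Of these, 4 fell, which is 28.6% against 15.4% of all tested genes, among them the most changed of the tested subunits. The median log2 change was -0.25, and 13 of 14 fitted changes were negative. The summed level was 53150 ± 704 in wild type and 44255 ± 4980 in knockout, 16.7% lower. Without Cox7a1, Cox7a2l and Cox6b2, 2 of the remaining 11 tested genes fell, which is 18.2%, and their median log2 change was -0.20.

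Cox7a1 encodes the form of subunit VIIa known from heart and skeletal muscle, and Cox7a2 the widespread form. This pair carries the largest change among the tested subunits beside one of the smallest. The stretches from 250 to 101 bases before their RefSeq starts are shown with that of Ndufa1, the next most changed of the lowered genes. They are 150 bases each, on the strand of the gene, from RefSeq and GRCm38.p6, and none held any of the 5 motifs described further on.
Cox7a1, chr7:30183921-30184070, plus strand: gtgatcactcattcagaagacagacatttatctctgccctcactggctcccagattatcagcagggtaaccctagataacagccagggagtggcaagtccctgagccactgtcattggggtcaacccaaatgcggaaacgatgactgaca
Cox7a2, chr9:79759954-79760103, minus strand: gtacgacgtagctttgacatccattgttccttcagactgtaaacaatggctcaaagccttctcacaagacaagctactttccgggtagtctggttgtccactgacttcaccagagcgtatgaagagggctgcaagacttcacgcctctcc
Ndufa1, chrX:37191339-37191488, minus strand: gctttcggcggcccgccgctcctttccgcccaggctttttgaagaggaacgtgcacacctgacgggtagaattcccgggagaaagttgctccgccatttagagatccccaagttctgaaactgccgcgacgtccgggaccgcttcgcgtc

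Cox7a1 (Entrez 12865, chr7:30184144-30186078) had 779, 790.1 and 772 normalized reads in wild type 1, 2 and 3 and 140.5, 256 and 253 in knockout 1, 2 and 3. Every knockout library was far below every wild-type library, by 82.0%, 67.3% and 67.6% of the wild-type mean. Means were 780.5 ± 8.99 and 216 ± 65.7, and the log2 change was -1.90 (SE 0.23, adjusted p = 0.00165, limma). Wild type 3, which was low in Nr3c1, was not low in Cox7a1.

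Cox7a2, in contrast in its values, had 2932, 2794 and 3189 normalized reads in wild type and 2588, 3339 and 2779 in knockout. The groups overlapped, with a log2 change of -0.04 (95% interval -0.34 to 0.25, adjusted p = 0.824, limma). Per kilobase of exon, Cox7a1 stood at 1459 and Cox7a2 at 4509 normalized reads in wild type. On that scale Cox7a1 made up 24.5% ± 1.44 of the sum of the pair in wild type and 8.32% ± 1.93 in knockout (SD, n = 3 each). The shares ran from 23.0% to 25.8% in wild type and from 6.27% to 10.1% in knockout, without overlap. The log2 ratio of Cox7a1 to Cox7a2 differed by -1.86, with an exact two-sided permutation p of 0.1, the smallest possible. Of 7 striated muscle markers, Ckm was at 0 in all wild-type libraries and at most 1.91 in knockout, and only 2 of the 7 passed the filter. Acta1, the skeletal muscle actin gene, was the exception, at 3834 ± 441 against 1960.0 ± 121 (log2 change -0.96, adjusted p = 0.00195, limma); the part of muscle tissue in the Cox7a1 result was not tested.

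**Figure D2:**
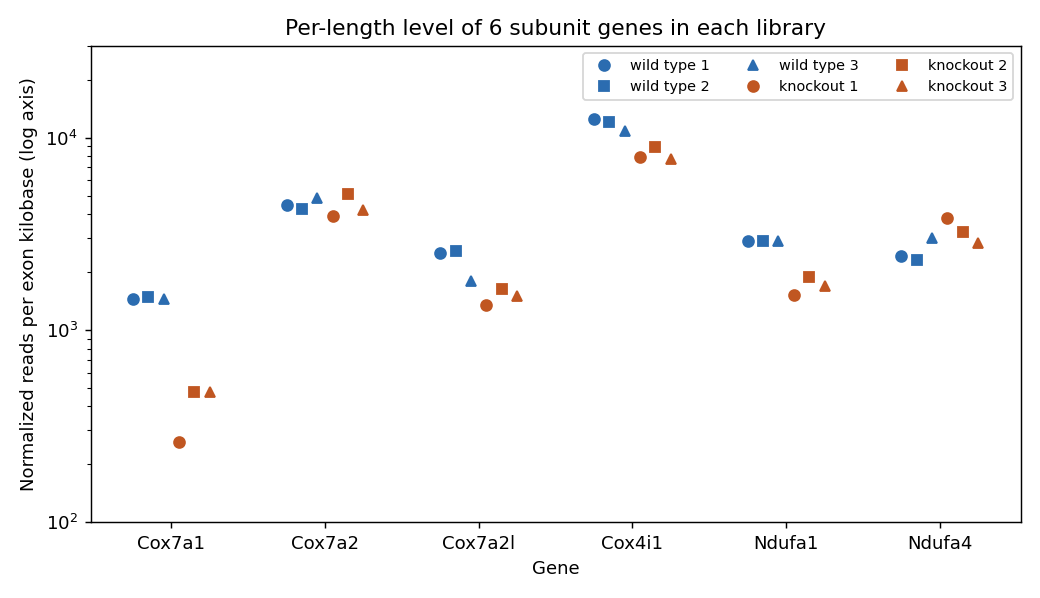
Normalized reads per kilobase of exon (vertical log axis) of 6 subunit genes in each of the 6 libraries (points). Cox7a1 drops from a mean of 1459 in wild type to 404 in knockout while Cox7a2 is at 4509 and 4404, and Ndufa4 overlaps between the groups.

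Cox7a2l, a Cox7a relative, fell as well (Entrez 20463, chr17:83501918-83517330). It had 2867, 2941 and 2065 normalized reads in wild type and 1541, 1867 and 1728 in knockout, a log2 change of -0.60 (SE 0.16, adjusted p = 0.0259, limma). Wild type 3 was by far the lowest wild-type library here, yet still above all knockout libraries. A near-identical pseudogene matches Cox7a2l, so some of its reads could have been shared or dropped.

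Cox4i1, the widespread form of the largest nuclear subunit, holds a regulatory site for ATP (Entrez 12857, chr8:120668222-120674207). Its values were 9539, 9243 and 8293 normalized reads in wild type and 6040.2, 6828 and 5908 in knockout, without overlap. The log2 change was -0.53 (SE 0.12, adjusted p = 0.0172, limma). Per kilobase of exon it was the second most abundant subunit in wild type, at 11797 normalized reads, after Atp5b at 14667. Cox6c (Entrez 12864, chr15:35925886-35938246) went from 3566, 3511 and 3653 to 2243, 3020.3 and 2355, a log2 change of -0.51 (SE 0.13, adjusted p = 0.0255, limma), and 2 near-identical pseudogenes match it.

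Of the other widespread forms, Cox6a1 stood at 6394 ± 108 and 5345 ± 638 (log2 change -0.27, adjusted p = 0.136, limma) and Cox7b at 4071 ± 253 and 3256 ± 402 (log2 change -0.33, adjusted p = 0.0800, limma). The wild-type and knockout values did not overlap in either gene. Cox8a stood at 4896 ± 243 and 4305 ± 653 (log2 change -0.20) and Cox6b1 at 4212 ± 232 and 3917 ± 519 (log2 change -0.11, 95% interval -0.41 to 0.19), both with overlap. Cox6b2, the testis form, was near the filter at 18.0, 15.6 and 18.2 against 10.5, 10.3 and 6.68 normalized reads and did not pass (log2 change -0.87, SE 0.33, adjusted p = 0.0794, limma).

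Ndufa4 was the tested subunit with the highest positive change and did not pass. It had 1514, 1446 and 1868 normalized reads in wild type and 2383, 2006 and 1758 in knockout, so that knockout 3 lay below wild type 3. The log2 change was 0.35 (SE 0.15, adjusted p = 0.116, limma). Its paralog Ndufa4l2, known as a gene induced by low oxygen, failed the filter with 0, 0.978 and 0.911 normalized reads in wild type and 1.05, 14.5 and 24.8 in knockout. That is 2 reads in wild type against 41 in knockout, a depth-adjusted ratio of 21.2 (exact 95% binomial interval 5.50 to 181, counting error only), carried by knockout 2 and 3 and not by knockout 1.

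The other 5 untested genes are forms of other tissues. Cox7b2 and Cox8c, known from testis, and Cox8b, known from heart and muscle, had 0 reads in all 6 libraries. Cox4i2, the lung form, had 1 read, in knockout 1, and Cox6a2, the muscle form, had 1 read in wild type 2 and 1 in knockout 3. Cox7a1 was thus the one muscle form of complex IV present at more than trace level. The number of lowered complex IV genes was 1 without wild type 1 or 2, 2 without knockout 1 or 3, 3 without wild type 3 and 5 without knockout 2.

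ATP synthase had the most abundant transcripts and the smallest median change. Of its 17 Atp5 genes 1 fell, which is 5.88% against 15.4% of all tested genes. Fitted changes were negative in 13, and the median was -0.11. The summed level was 101643 ± 5474 in wild type and 97249 ± 9706 in knockout, 4.32% lower, and less than the spread between libraries. Atp5h, a subunit of the peripheral stalk that holds the catalytic head in place, was the lowered gene (Entrez 71679, chr11:115415689-115419962).

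Atp5h had 3071, 3026 and 3206 normalized reads in wild type and 2040.0, 2572 and 2117 in knockout. The groups did not overlap and knockout 2 was nearest to wild type, with a log2 change of -0.47 (SE 0.12, adjusted p = 0.0216, limma). It has 4 near-identical pseudogenes, so its count is uncertain to the extent that reads were shared. Atp5j2, a small membrane subunit, was next, at 3238 ± 43.7 and 2584 ± 373 (log2 change -0.34, adjusted p = 0.0786, limma).

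The catalytic head did not pass in any of its 5 genes. Atp5b, the catalytic beta subunit, had 27193, 27232 and 29881 normalized reads in wild type and 27361, 30695 and 26969 in knockout, a log2 change of 0.01 (95% interval -0.36 to 0.38, adjusted p = 0.963, limma). Atp5a1, the alpha subunit, stood at 22263 ± 1603 and 21648 ± 2481 (log2 change -0.04, 95% interval -0.42 to 0.33). The groups of both genes overlapped, and the intervals also hold changes as large as the median of complex I. The median log2 change was -0.08 over the 5 head genes and -0.14 over the other 12. Atp5g1, Atp5g2 and Atp5g3, which encode the same proton-carrying ring subunit, had log2 changes of -0.11, -0.18 and 0.09, and none passed. The number of lowered ATP synthase genes was 0 when a wild-type library or knockout 3 was left out, 1 without knockout 1 and 3 without knockout 2.

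**Figure D3:**
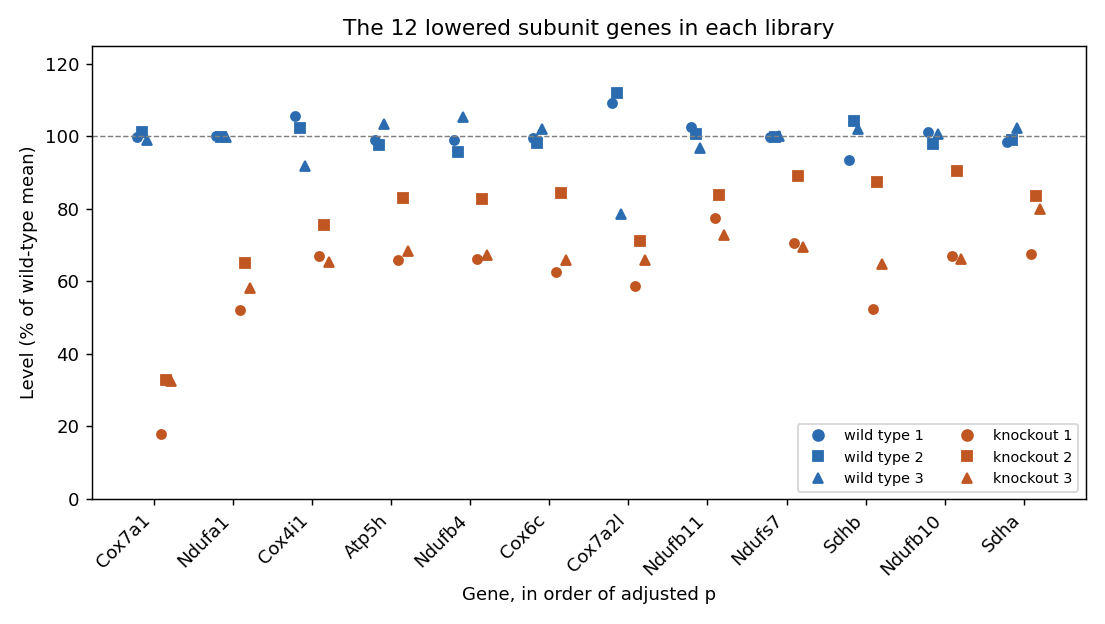
Level of each of the 12 lowered subunit genes (horizontal axis, in order of adjusted p) in each of the 6 libraries (points), as a percentage of the wild-type mean (vertical axis, from 0). Every knockout point lies below every wild-type point; knockout 2 is the highest knockout library for each gene, and Cox7a1 lies lowest.

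The knockout libraries were not alike. Over the 79 tested subunits, the median log2 difference from the wild-type mean was -0.29 in knockout 1, -0.03 in knockout 2 and -0.29 in knockout 3, and -0.02, -0.03 and 0.05 in wild type 1, 2 and 3. In percent, knockout 1 and 3 lay 18.4% and 18.0% below the wild-type mean and knockout 2 lay 2.07% below it. Knockout 2 was thus at the wild-type level in the median subunit. It was the highest knockout library in 75 of the 79, or 94.9%, against 30.5% of all tested genes; the exceptions were Cox6b2, Ndufa2, Ndufa4 and Ndufb3.

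The number of subunits below all 3 wild-type libraries was 74 in knockout 1 (93.7%), 37 in knockout 2 (46.8%) and 69 in knockout 3 (87.3%). Over all tested genes these shares were 41.7%, 37.1% and 37.4%, so that knockout 2, over all 79 subunits, was not far from that background. By complex, the share for knockout 2 ran from 23.5% in ATP synthase to 58.3% in complex I. The complex I medians were -0.34, -0.09 and -0.29 in knockout 1, 2 and 3, and -0.01, -0.03 and 0.04 in wild type 1, 2 and 3. In ATP synthase the median of knockout 2 lay above the wild-type mean, by 0.07, while that of knockout 1 and 3 was -0.19 and -0.21. In complex IV the 3 medians were -0.43, -0.06 and -0.30. Wild type 3 was the highest wild-type library in 57 of the 79 subunits (72.2%, against 34.8% of all tested genes) and the lowest in 7 (8.86%, against 36.3%), including Cox7a2l and Cox4i1.

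**Figure D4:**
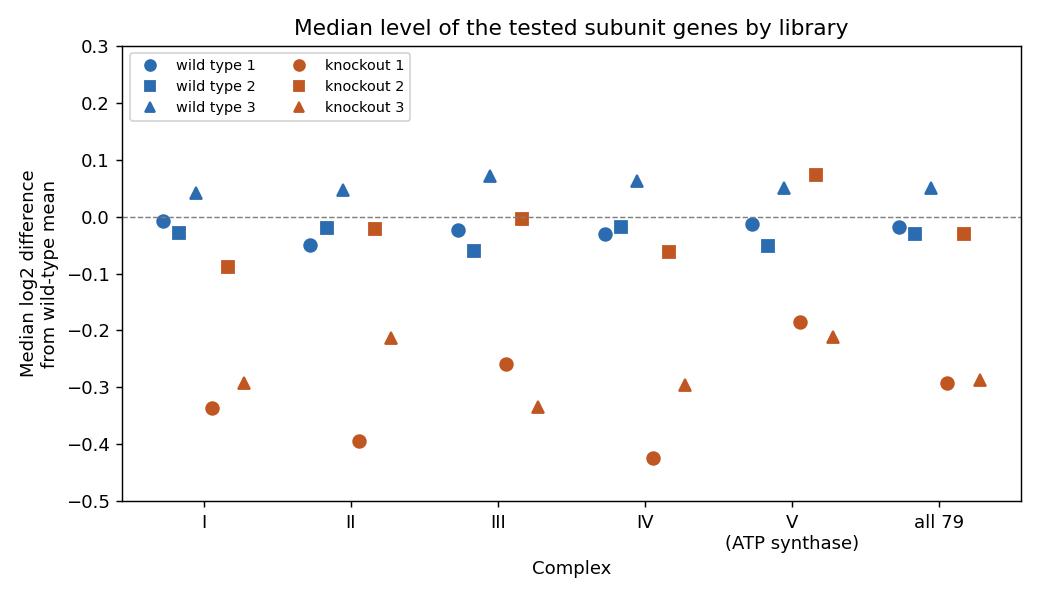
Median over the tested genes of each complex, and of all 79, of the log2 difference from the wild-type mean (vertical axis) in each library (points). Knockout 1 and 3 lie below all wild-type libraries in each complex, and knockout 2 lies close to 0, above the wild-type mean in ATP synthase at 0.07.

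Marker genes of several cell types also differed between the libraries, and not all in this order. The 8 absorptive colonocyte markers, of which 3 fell (Car1, Guca2a and Slc5a8), summed to 55177, 125387 and 53629 in knockout 1, 2 and 3, and to 176205 to 225437 in wild type. Car1 carries most of that sum in wild type, and stood at 27915, 66598 and 22506 in knockout 1, 2 and 3. On the mean log2 level, which weights the 8 genes equally, knockout 2 at 13.18 lay inside the wild-type range of 12.97 to 13.29, and knockout 1 and 3 lay below it at 11.90 and 12.17. Slc26a3, Car4 and Aqp8 of this list were each higher in knockout 2 than in every wild-type library and did not pass. The 7 goblet cell markers, of which 1 fell, summed to 46298, 77487 and 59557 in the knockout libraries and to 80378 to 85868 in wild type. The lowered gene was Muc2, at 28352 ± 8880 against 9662 ± 1363 (log2 change -1.51, adjusted p = 0.00616, limma). Tff3 was higher in every knockout library than in every wild-type library and did not pass. Fcgbp, Zg16, Spdef, Clca1 and Agr2 had log2 changes of 0.04, -0.02, -0.93, -0.52 and -0.52, and none passed. The mean log2 level of the 7 markers in knockout 2, 12.90, also lay inside the wild-type range.

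The 16 myeloid markers summed to 9569, 3963 and 4069 in knockout 1, 2 and 3, and Ptprc, the common leukocyte antigen, stood at 252, 100.4 and 119 against 33.2 to 50.1 in wild type. Of those sums, S100a8 gave 2129, 953 and 599 and S100a9 gave 2330, 860 and 377. In wild type S100a8 was at most 20.5 and S100a9 at most 18.6. The myeloid markers that did not pass all lay inside the wild-type range in knockout 2. The 13 stromal and endothelial markers, with 2 raised among 8 tested, summed to 2922, 952 and 1474 against 617 to 1210, with Cdh5 at 0 in all wild-type libraries. The raised genes were Dcn and Vim. Pecam1, an endothelial marker, went the other way, at 22.3, 27.4 and 18.2 in wild type and 7.34, 8.28 and 15.3 in knockout, and did not pass (adjusted p = 0.0550, limma). The 11 lymphocyte markers, with 1 raised among 2 tested, summed to 118 to 281 against 35.2 to 129, with Cd3e at most 7.34 in any library. The raised one was Cd52, from 10.3 ± 4.59 to 55.5 ± 11.9 (log2 change 2.38, adjusted p = 0.00347, limma). Cd52 and Jchain, which did not pass, made up most of the lymphocyte sum in each knockout library. All other lymphocyte markers failed the filter. The 9 epithelial markers summed to 325434, 314347 and 286594 in knockout 1, 2 and 3 and to 263094 to 307556 in wild type, an order unlike that of the subunits. Among them 2 rose, Krt20 (log2 change 0.99, adjusted p = 0.00740, limma) and Vil1 (log2 change 0.59, adjusted p = 0.0134, limma). The 3 erythroid markers in the table, of which 0 of 2 tested passed, summed to 72.3, 306 and 72.6 in knockout 1, 2 and 3 and to 26.4 to 97.6 in wild type, so that knockout 2 stood highest. The part of these cell types in the subunit levels was not tested.

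The genes that build or feed the chain were read from lists of its partners. Among 16 tested carriers and further subunits, 5 fell and 1 rose, beside 15.4% of all tested genes lowered and 15.0% raised. Etfdh, which passes electrons from fatty acid oxidation to ubiquinone, went from 1757 ± 55.1 to 1125 ± 129 normalized reads (log2 change -0.65, adjusted p = 0.00603, limma), and its electron donors Etfa and Etfb fell with it. Gpd2, which feeds electrons from glycerol phosphate, rose from 799 ± 120 to 1537 ± 270.0 (log2 change 0.94, adjusted p = 0.00655, limma). Dmac2, needed for the membrane arm of complex I, and Atpif1, the inhibitor of ATP synthase, were the other lowered genes. Cyc1, the complex III cytochrome that the name rule leaves out, and Cycs, cytochrome c, did not pass, with log2 changes of -0.22 and 0.24. Those beyond Etfdh and Gpd2 were chosen after their values were seen. The number lowered was 2 without wild type 2 and 3 without wild type 1 or knockout 3, and 2 rose without knockout 3. In the fits without 1 library, 7.42% to 14.2% of all tested genes fell and 7.56% to 13.9% rose, which also stands beside such counts for the following lists.

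Assembly factors fell in small numbers, beside the 15.4% of all tested genes that fell. For complex I, 1 of 19 fell, Lyrm2; for complexes II and III, 2 of 10, Uqcc1 and Ttc19; for complex IV, 4 of 24, Surf1, Higd2a, Lrpprc and Cmc1; and for ATP synthase, 1 of 5, Fmc1. No factor in these lists rose. Surf1, which acts early in building the core of complex IV, went from 794 ± 110 to 468 ± 92.1 normalized reads (log2 change -0.77, adjusted p = 0.0134, limma), and Fmc1 from 277 ± 26.8 to 172 ± 13.4 (log2 change -0.68, adjusted p = 0.00959, limma). Medians of the 4 lists were -0.13, -0.30, -0.19 and -0.22. Among complex IV factors the number lowered was 0 without wild type 1 or 2, 1 without knockout 3 and 2 without knockout 1, and for complexes II and III it was 0 without wild type 1 or 2 and 1 without any other library. With 1 library left out, Lyrm2 passed in none of the 6 fits and Fmc1 in all 6. Lrpprc and Cmc1 were named after their values were seen.

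In coenzyme Q synthesis, which makes ubiquinone, 3 of 13 tested genes fell and 1 rose, beside 15.4% and 15.0% of all tested genes. Coq8a, an atypical kinase-like protein of this pathway, had 525, 582 and 484 normalized reads in wild type and 31.4, 123 and 97.4 in knockout (log2 change -2.85, SE 0.45, adjusted p = 0.00435, limma). This was a larger fall than that of any subunit, with no overlap. Coq2 and Coq9 also fell and Coq3 rose. The number lowered was 1 without wild type 1 or 2 or knockout 3, 2 without wild type 3 and 4 without knockout 1, and Coq3 passed only in the fit without knockout 3.

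In the tricarboxylic acid cycle and pyruvate dehydrogenase, which supply NADH and succinate, 7 of 21 tested genes fell and none rose, beside 15.4% and 15.0% of all tested genes, and the median log2 change was -0.31. These were Idh2, Suclg2, Idh3b, Suclg1, Sucla2, Fh1 and Pdha1. Idh2, the mitochondrial NADP-linked isocitrate dehydrogenase, went from 1784 ± 186 to 951 ± 117 normalized reads (log2 change -0.91, adjusted p = 0.00317, limma). Suclg2, a subunit of succinyl-CoA ligase, went from 3836 ± 206 to 2456 ± 218 (log2 change -0.65, adjusted p = 0.00577, limma). The number lowered was 2 without wild type 1 or 2, 4 without wild type 3 or knockout 3, and 5 without knockout 1, when 1 also rose. Mitochondrial import and chaperone genes had a positive median of 0.30: of 25 tested, 4 rose, Tomm6, Tomm22, Timm8b and Vdac2, and 1 fell, Vdac3. The share raised is near the 15.0% of all tested genes. Tomm6, a small part of the outer membrane translocase, went from 477 ± 25.5 to 841 ± 58.2 (log2 change 0.81, adjusted p = 0.00219, limma), and Vdac3, an outer membrane channel, from 3949 ± 135 to 2135 ± 458 (log2 change -0.91, adjusted p = 0.00563, limma). Of the import genes 1 rose without wild type 1 or 2, 2 without wild type 3 or knockout 2, and 6 without knockout 3.

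Among 20 tested regulators of mitochondrial biogenesis and oxidative metabolism, 6 fell and 1 rose, beside 15.4% and 15.0% of all tested genes. Ppara, a nuclear receptor that drives fatty acid oxidation genes, had 558, 568 and 403 normalized reads in wild type and 40.9, 78.6 and 66.8 in knockout (log2 change -3.05, adjusted p = 0.000604, limma). Sirt3, a mitochondrial deacetylase, went from 248 ± 29.7 to 121 ± 22.5 (log2 change -1.05, adjusted p = 0.00616, limma). Ppargc1b, Tfb2m, Pparg and Esrrg also fell, and Perm1, near the filter, rose. Ppargc1a, the coactivator best known for driving these subunits, was spread over the knockout libraries, at 356, 305 and 339 against 29.4, 247 and 198, and did not pass (log2 change -1.54, SE 0.70, adjusted p = 0.129, limma). Knockout 2 was again the highest of the knockout libraries for Ppargc1a. Nrf1, which encodes a factor that binds many subunit promoters, stood at 273 ± 33.2 and 287 ± 16.2 (adjusted p = 0.673, limma). Those after Sirt3 were chosen after their values were seen; the number lowered was 3 without wild type 1 or 2 or knockout 3, and Perm1 passed only in the fit without wild type 2.

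Promoter windows from RefSeq (GRCm38.p6), the 250 bases before each start, were found for 69 of the 85 subunits, 10 of the 12 lowered ones and 10244 tested genes. They were searched on both strands for exact letters of 5 motifs. The NRF1 core CGCATGCG, a palindrome, was present in 7 subunits (10.1%) and in 3.49% of the tested genes. The matches are shown because NRF1 is a classic regulator of these genes, each within 30 bases on the strand of the gene and with the motif in capitals.
Atp5g2, chr15:102671070-102671099, minus strand: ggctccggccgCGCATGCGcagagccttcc
Atp5j, chr16:84835105-84835134, minus strand: aggccagaataCGCATGCGtacagtgcagt
Atp5k, chr5:108434430-108434459, minus strand: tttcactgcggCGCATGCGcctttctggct
Atp5l, chr9:44920963-44920992, minus strand: aaccaataaCGCATGCGcatttcccccact
Cox6a1, chr5:115349101-115349130, minus strand: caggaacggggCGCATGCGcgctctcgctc
Ndufa11, chr17:56717692-56717721, plus strand: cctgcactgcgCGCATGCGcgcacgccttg
Ndufa8, chr2:36049339-36049368, minus strand: gcgcttgcgcgtcgctggagaCGCATGCGc

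None of these 7 genes passed the expression test. Their log2 changes were -0.18 for Atp5g2, -0.19 for Atp5j, 0.03 for Atp5k, -0.09 for Atp5l, -0.27 for Cox6a1, -0.15 for Ndufa11 and -0.12 for Ndufa8. The GABPA letters CCGGAAG were in 12 subunits (17.4%) and 15.4% of tested genes, and Atp5h was the lowered subunit holding them. The YY1 letters AAGATGGC were in 1 subunit (1.45%) against 2.41%, and the letters TCAAGGTCA, bound by estrogen-related receptors, in 1 (1.45%) against 0.293%. The letters ACANNNTGT, a core of the glucocorticoid receptor site, were in 0 of the 69 subunits against 4.49% of tested genes. A match is only a match of letters, and its absence says nothing outside this window.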

How the data were processed

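Colonic epithelial RNA from 6 mice, 3 wild type and 3 knockout, was analysed, with groups taken from the labels. Values in the deposited table are a normalized signal, which the authors made by dividing gene counts by a DESeq2 size factor, per the submitters' processing notes, which also name FastQC, TopHat and mm10 without versions. For the read counter and the gene annotation used, nothing is given in the sources used here. Libraries were non-stranded TruSeq mRNA, per the labels' protocols, so overlapping genes share reads. Dividing by the smallest step of each library gave whole reads for 100% of values, within 0.001.

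Of 23725 Entrez rows, 23666 matched a RefSeq symbol (GRCm38.p6). Gene coordinates, exon lengths, exon overlaps over 10% and near-identical pseudogenes (at least 95% identity over 150 bases) came from GENCODE M21 (GRCm38), the assembly from which mm10 was made. All 12837 genes with at least 10 in at least 3 libraries were fitted with limma 3.58.1 (R 4.3.3, intensity-dependent prior) on log2(value + 1), which understates changes of low genes. P-values are two-sided, with Benjamini-Hochberg adjustment over all genes and a threshold of 0.05. They set the group difference against the spread between these mice, moderated by the prior from all tested genes. Intervals are 95%. Scripts were tested on simulated data.

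The subunits and lists were chosen with earlier results of these data known. The text names Nr3c1, every subunit past the threshold, in each complex the highest subunit and the one nearest the threshold, isoform pairs, untested subunits and the 2 smallest adjusted p per partner list; others were chosen after their values were seen. A gene that this rule names is not reported here. Alternatives were pseudocounts of 0.5 and 5, no filter or a filter at 50, quantile, TMM and upper-quartile scaling, a robust prior, edgeR 4.0.16 and DESeq2 1.42.0 on recovered reads, and leaving out each library. Replicate pairs differed beyond counting noise (chi-square divided by degrees of freedom 14.2 to 53.9).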

Additional observations from a re-analysis of the deposited data

How the results depend on the processing

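No paired analysis was possible because the replicate numbers were given in accession order and the labels pair no libraries. No subunit rose under any of the 16 alternatives. The calls of Cox7a1 and Ndufa1 held in all 16; 9 of the 12 lowered subunits kept the call in all 10 settings that used every library, and Sdhb, Ndufb10 and Sdha lost it with no filter and with edgeR, Sdha also with robust empirical Bayes. The number of lowered subunits was 22 with quantile normalization, with 11 in complex I, 1 in complex III and 2 in complex V, while 15.6% of all genes fell there. Complex II had 0 lowered with no filter and with edgeR and 1 with robust empirical Bayes. Leaving out 1 library gave 1923 to 3607 changed genes, 2 to 27 lowered subunits, 1 to 15 in complex I, 0 to 2 in complex II, 0 to 2 in complex III, 1 to 5 in complex IV and 0 to 3 in complex V. The highest of each came without knockout 2, when 14.2% of all genes fell. A fit with 1 library left out has fewer samples, and its smaller group is assumed to vary like the other. The median log2 change of the subunits ran from -0.31 with quantile normalization to -0.15 without knockout 1. The log2 change of Nr3c1 ran from -2.82 without wild type 3 to -1.57 without wild type 1. Other causes of these differences were not tested.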
